A study of Rattus norvegicus with 120 samples.

Results

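Among 120 F2 male rats, 27 animals had a low eye level of RT1-Bb, the gene of the beta chain of the MHC class II molecule RT1-B, and these were compared with the 29 animals of highest level. Animals were selected on 1 of the 2 RT1-Bb probe sets: the mean of each S code was subtracted from the log2 value and the overall mean was added back. Animals under 6.4 formed the low class, animals over 8.3 the high class, and the other 64 the middle class. The low class was 22.5% of all animals, the middle class 53.3% and the high class 24.2%.

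The animals came from a cross of the inbred strains SR/jrHSD and SHR/SP, and the study was a search for loci that act on transcript levels in the eye. All classes shared this cross, the male sex and the age of 12 weeks, and no animal was treated, as far as the labels say. Each array held the pooled eye RNA of 1 animal, so each value is the mean over every eye tissue, and fewer cells of a type and less RNA per cell cannot be told apart. Nor can probe binding and transcript level, because the strains can differ in the sequence under the probes. This holds for the RT1-Bb probe set used for selection and for every gene named below. The sample titles carry 10 different S codes and 22 different L codes that the labels do not explain. The titles of 5 S codes also carry 1 date each, different for each code, and those of the other 5 carry none; what the dates mark is not stated.

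MHC class II molecules are pairs of an alpha and a beta chain that present peptides from outside the cell to CD4+ T cells. The rat has the RT1-B pair, encoded by RT1-Ba and RT1-Bb and related to human HLA-DQ, and the RT1-D pair, encoded by RT1-Da and RT1-Db1 and related to HLA-DR. In the eye these molecules are carried mainly by resident dendritic cells and macrophages, and the genes lie together in the RT1 complex on chromosome 20, which differs greatly between inbred strains.

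The promoters of the 4 chain genes are shown because class II genes are commonly switched on together through a short module upstream of the start, in which RFX proteins bind the X box, CREB binds the adjoining element and NF-Y binds the Y box. All 4 genes were found in the RefSeq table of build GRCr8, which is the sequence of another strain, BN, and not of either parent. Each line gives the 150 bases before the start of the gene, 5′ to 3′ on the strand of the gene, with capitals for 3 motifs searched on both strands: ATTGG (the Y box core), ACNGATG (the X box core) and TGACGTCA (the CREB element). The RT1-Bb stretch lies at chr20:4604119-4604268 on the minus strand, that of RT1-Ba at chr20:4576907-4577056 on the plus strand, that of RT1-Db1 at chr20:4560163-4560312 on the minus strand and that of RT1-Da at chr20:4515265-4515414 on the plus strand.
RT1-Bb: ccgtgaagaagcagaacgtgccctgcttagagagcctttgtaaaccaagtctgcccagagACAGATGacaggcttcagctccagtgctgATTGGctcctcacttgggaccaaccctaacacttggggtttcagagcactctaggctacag
RT1-Ba: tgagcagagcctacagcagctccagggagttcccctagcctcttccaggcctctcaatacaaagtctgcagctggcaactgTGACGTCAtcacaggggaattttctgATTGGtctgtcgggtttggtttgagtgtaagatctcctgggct
RT1-Db1: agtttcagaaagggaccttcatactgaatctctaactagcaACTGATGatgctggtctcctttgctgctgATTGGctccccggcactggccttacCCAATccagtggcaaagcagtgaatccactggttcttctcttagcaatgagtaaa
RT1-Da: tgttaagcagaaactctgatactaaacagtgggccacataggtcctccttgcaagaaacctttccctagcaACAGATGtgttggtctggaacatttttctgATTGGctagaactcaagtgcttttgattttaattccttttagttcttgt
RT1-Bb, RT1-Db1 and RT1-Da each held the X core upstream of the Y core. The Y core began 61 bases before the start in RT1-Bb, 80 in RT1-Db1 and 49 in RT1-Da. The X core began 90 bases before the start in RT1-Bb and 79 in RT1-Da. RT1-Ba held the Y core 43 bases and the CREB element 69 bases before its start, and RT1-Db1 held a second Y core, read on the other strand as CCAAT, 55 bases before. Of 33469 promoter stretches of 150 bases in the table, 23.5% held the Y core, 4.97% the X core and 1.36% the CREB element. A match is a stretch of letters in the BN reference, and the arrays do not bear on binding to it.

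The values that chose the animals, with the S code means removed, fell into a separate low cluster and a continuous upper range. After removal of the S code means, RT1-Bb lay between 4.28 and 5.98 in the low class (median 4.80), between 6.97 and 8.26 in the middle class (median 7.84) and between 8.36 and 9.60 in the high class (median 8.66). The lower threshold stood in an empty interval between animals at 5.98 and 6.97. The upper threshold lay between animals at 8.26 and 8.36, with 28 animals within 0.3 of it. The edge between the middle and the high class was thus no gap in the values with S code means removed. The other RT1-Bb probe set, 1371065_at, was near the bottom of the scale, with medians of 3.99 in the low, 3.79 in the middle and 3.70 in the high class. These values are given as a description.

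**Figure D1:**
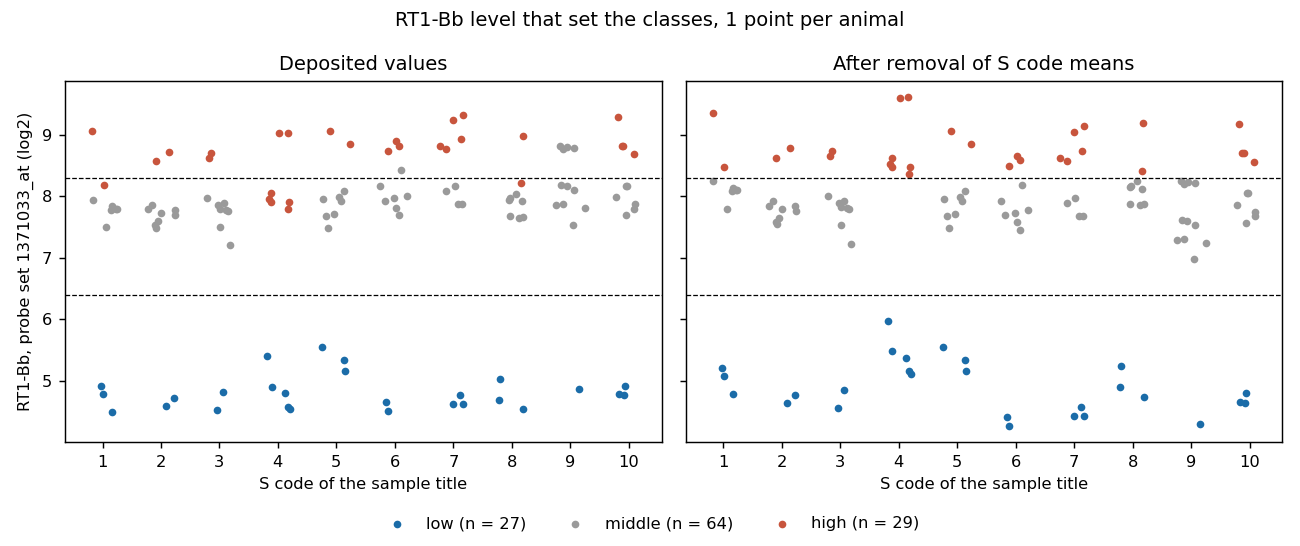
RT1-Bb level (log2, the probe set used for selection) of each of 120 animals by S code, as deposited on the left and after removal of S code means on the right, with dashed lines at 6.4 and 8.3. Low animals (n = 27) stood apart from the middle (n = 64) and high animals (n = 29) in every S code; in S code 4 the high class reached down to 7.79 as deposited, and in S code 9 the middle class reached up to 8.82.

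The edge between middle and high moved with the make-up of an S code. S code 4 held 5 low, 0 middle and 7 high animals, and S code 9 held 1 low, 11 middle and 0 high animals, and the mean of RT1-Bb was 6.83 in S code 4 and 7.96 in S code 9. When the same thresholds were set on the deposited values, 7 animals of the high class became middle and 5 of the middle class became high, while all 27 low animals stayed low. RT1-Ba, the alpha chain partner, which the rule did not use, separated most of the reassigned animals on 2 of its 4 probe sets. On 1370822_at the 22 animals that were high either way had 7.36 to 8.28 (median 7.85), the 7 that were high only after removal of the S code means had 6.90 to 7.41 (median 7.15), and the 5 that were high only on the deposited values had 7.47 to 8.16 (median 7.79). The 59 animals that were middle either way had 6.64 to 7.74 there (median 7.23), so the 7 lay near the middle animals and the 5 nearer the high ones. On 1377334_at the 22 animals that were high either way had 4.39 to 5.45 (median 4.79), and the 7 animals that were high only after removal of the S code means had 6.87 to 7.60 (median 7.17). The animals that were middle either way had 6.25 to 7.67 on it (median 7.07). Of the 5 animals that were high only on the deposited values, 4 had less than 6. These are descriptions with no test. The rule as stated was kept, and the alternatives stand at the end.

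Across 23325 probe sets, which leave out those of RT1-Bb, 68 were lower (0.292% of those tested) and 54 higher (0.232%) in low than in high animals with an adjusted p under 0.05 (limma, S code as a factor), which together is 0.523% of those tested and the base of every later count of calls. The 78 called probe sets that carry a single gene symbol named 68 genes, led by MHC class II and class I genes; 37 had no symbol and 7 had several. Most changes were small: the median called difference was 1.22-fold, and 16 were at least 2-fold, up to 8.8-fold. The largest was on a probe set with no symbol, which could be one for RT1-Bb itself, the gene that chose the animals. The median difference over all probe sets was 0.000256 and the median absolute difference 0.035 on the log2 scale. The middle class lay between low and high in 120 of the called probe sets. All 9 S codes with both classes showed the same direction for 82 of them. Both counts cover only probe sets already called in these arrays, so they are descriptions, and the shares over all tested are not given. Before adjustment, 1654 probe sets (7.09%) had a p under 0.05, the base of every later unadjusted count.

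The RT1-Ba chain gene, next to RT1-Bb in the gene order, gave opposite directions on different probe sets. On 1370822_at it ran from 5.61 through a median of 6.06 to 6.56 in the low class, from 6.64 through 7.25 to 8.16 in the middle class and from 6.90 through 7.82 to 8.28 in the high class. No low animal reached the range of the high class. The difference was -1.59 ± 0.08 (SE, log2, 3.02-fold) with an adjusted p of 1.24e-35 in limma, and it lay between -1.89 and -1.21 in the 9 S codes with both classes.

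On RT1-Ba probe set 1377334_at low animals lay between 7.64 and 8.48 (median 8.03), middle animals between 4.66 and 7.88 (median 7.06) and high animals between 4.39 and 7.60 (median 4.80). Here the low class was the higher one, again without overlap, by 2.73 ± 0.17 (SE, 6.62-fold, limma adjusted p = 1.87e-27). The high class was split: 22 animals lay between 4.39 and 5.45. The 7 that were high only after removal of the S code means lay between 6.87 and 7.60. The size of the difference is thus uncertain, and it ran from 1.57 to 3.17 over 24 other settings. The other two RT1-Ba probe sets showed nearly level means. On 1381593_x_at the difference was -0.04 with a 95% interval of -0.13 to 0.06, and on 1392334_at it was 0.02 with an interval of -0.06 to 0.10. The strains can differ in the sequence under the probes, and probe binding and transcript level cannot be told apart here. The marker RT1-Ba followed the label of the low class on 1 probe set, opposed it on another and did not pass the test on the other two.

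The RT1-D chains were lower in low animals, by less. RT1-Db1, the beta chain, had 3.85 to 4.33 in the low class (median 4.11), 3.97 to 5.16 in the middle class (median 4.47) and 4.34 to 5.08 in the high class (median 4.81) on 1370382_at. The low and high ranges did not meet, and the difference was -0.66 ± 0.05 (SE, limma adjusted p = 5.99e-23). The low class was at the bottom of the scale here, so the size of the difference is uncertain. Its median lay under the low-value filter of 4.283, which was set on the mean of all animals, and the middle and high medians lay above it. Its other probe set 1370383_s_at gave -0.41 ± 0.05 (adjusted p = 9.24e-10 in limma), with 17 of 27 low animals below every high animal. RT1-Da, the alpha chain, had 9.03 to 9.83 in the low class (median 9.49), 8.88 to 10.14 in the middle class (median 9.54) and 9.32 to 10.07 in the high class (median 9.68) on 1370883_at. The classes overlapped over most of their range. RT1-Da differed by -0.23 ± 0.05 (limma adjusted p = 0.0095), and the call was lost in 4 of 24 other settings, among them the fit with no S code term and the one without S code 4.

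**Figure D2:**
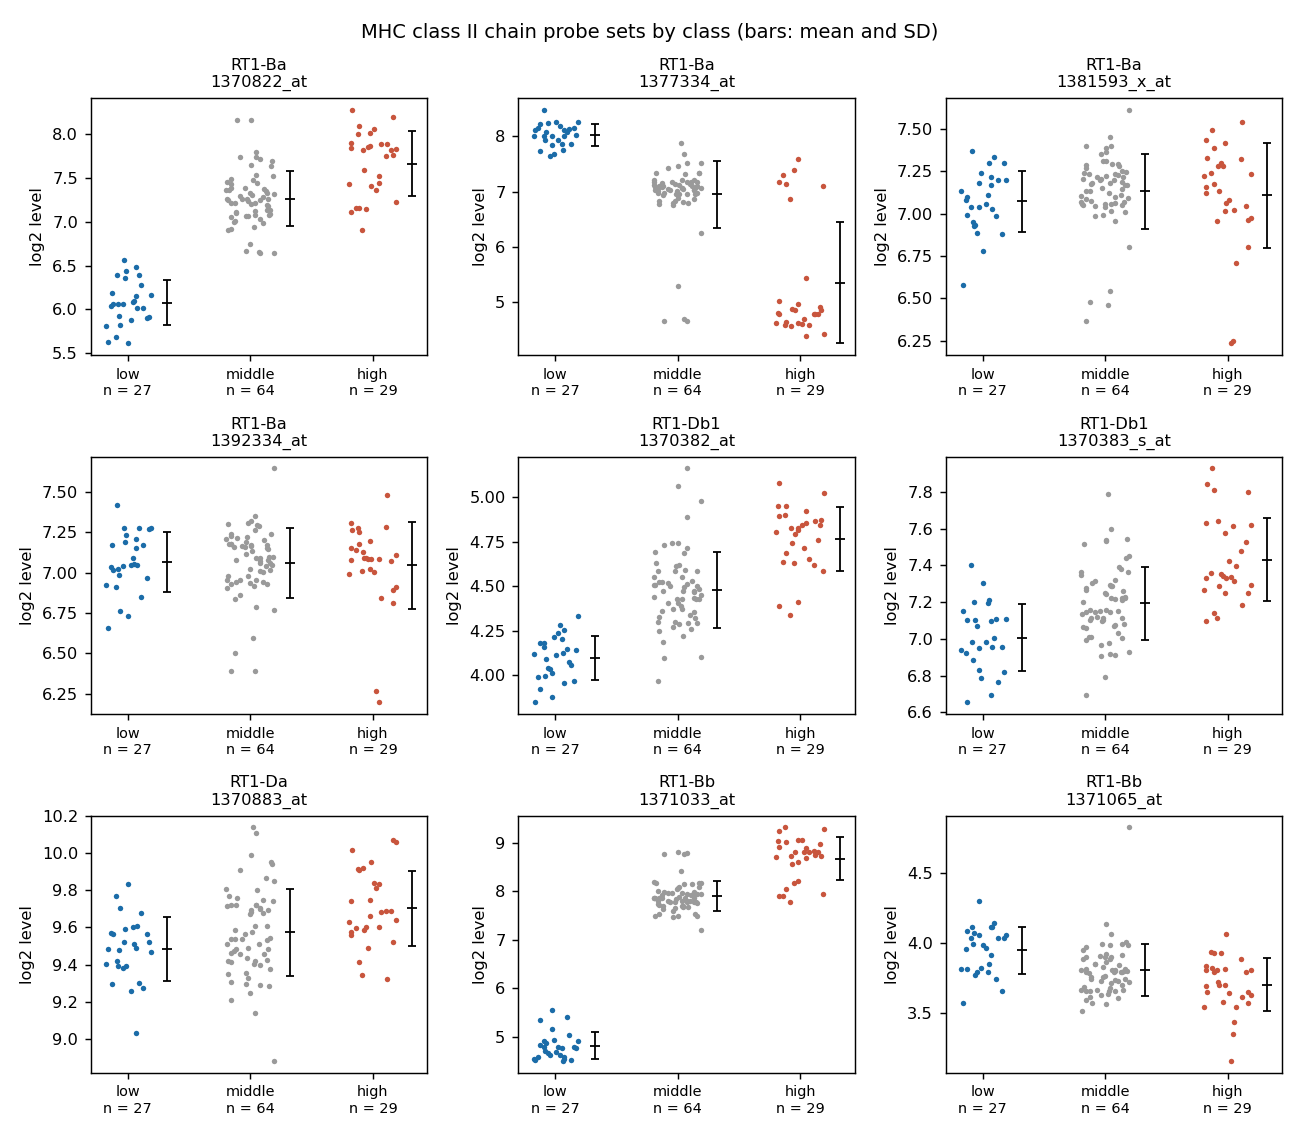
Log2 level of each animal for the probe sets of the MHC class II chains in low (n = 27), middle (n = 64) and high animals (n = 29), with bars for mean and SD. RT1-Ba is lower in low animals on 1370822_at (low median 6.06, high median 7.82) and higher on 1377334_at (low median 8.03, high median 4.80), while 1 of the 2 RT1-Bb probe sets gave the values that set the classes.

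Of the 7 probe sets of class II chains other than RT1-Bb, 4 were lower and 1 higher in low animals, with a median difference of -0.23. None of the 10 probe sets of genes that load or control class II passed the test, with a median of -0.01 and 1 at an unadjusted p under 0.05 (limma). Cd74, the invariant chain that escorts class II through the cell, averaged 9.47 ± 0.18 in low animals (SD, n = 27) and 9.50 ± 0.20 in high animals (SD, n = 29), a difference of -0.02. Ciita, the master activator of class II genes, differed by 0.06 on 1369214_a_at and 0.02 on 1379381_at. The RFX subunits that bind the X box shown above differed by 0.03 for Rfx5, -0.04 for Rfxank and 0.08 for Rfxap. RT1-DMa and RT1-DMb, which exchange the peptides held by class II, differed by -0.09 and -0.04. Ctss and Ifi30, which break down the invariant chain and antigens in endosomes, differed by -0.02 and less than 0.01 in size.

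Antigen-presenting cell markers had close means in the classes. The macrophage, microglia and dendritic cell list, with 23 probe sets tested, averaged 6.19 ± 0.11 in low animals (range 5.91 to 6.41) and 6.23 ± 0.09 in high animals (range 6.06 to 6.44), and none of its probe sets passed the test in limma, with 3 at an unadjusted p under 0.05. B cell markers (3 tested) averaged 4.83 ± 0.14 in low animals and 4.85 ± 0.13 in high animals, and T and NK cell markers (7 tested) 4.92 ± 0.11 in low animals and 4.93 ± 0.12 in high animals (SD). None of those was called in limma, and 0 had an unadjusted p under 0.05. The interferon list, with 23 tested, averaged 7.08 ± 0.35 in low animals and 7.17 ± 0.32 in high animals, again with none called and 1 at an unadjusted p under 0.05.

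Class I chain genes, whose products present peptides from inside the cell to CD8+ T cells, moved in both directions: 5 of 14 probe sets were lower and 3 higher in low animals, from 6 genes, with a median of -0.03. RT1-A3 had 4.82 to 6.16 in the low class (median 5.56), 3.99 to 5.31 in the middle class (median 4.84) and 3.45 to 4.97 in the high class (median 4.08) on 1371213_at. The classes formed steps, and 25 of 27 low animals lay above all high animals, with a difference of 1.39 ± 0.08 (SE, limma adjusted p = 3.07e-32). The high class was at the bottom of the scale here, with its median under the low-value filter of 4.283, so the size of the difference is uncertain. RT1-T24-3 was higher too, with 6.85 to 9.82 in low animals (median 7.67), 6.18 to 8.65 in middle animals (median 6.97) and 5.51 to 9.13 in high animals (median 6.21). Its ranges overlapped widely, with single animals far from the rest, and the difference was 1.35 ± 0.14 (adjusted p = 4.13e-13 in limma).

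RT1-T24-4, a gene of the same family 4 places away in the gene order, was lower. It had 5.13 to 5.87 in low animals (median 5.46), 5.52 to 7.47 in middle animals (median 6.20) and 6.15 to 7.47 in high animals (median 6.73). No low animal reached the high class, and the difference was -1.26 ± 0.07 (SE, limma adjusted p = 2.33e-31). RT1-S3 was lower by 0.43 to 0.53 on 3 probe sets that passed the test, and its probe set 1371123_x_at at -0.32 did not (limma adjusted p = 0.105). For low against all other animals, 1388212_a_at and 1388213_a_at lost the call (adjusted p = 0.111 and 0.0587 in limma). RT1-CE16 was higher by 0.51 and RT1-CE10 lower, at -0.29, while RT1-CE5, RT1-CE12 and RT1-M3-1 were not called. Beta-2 microglobulin (B2m), the light chain shared by all class I molecules, differed by -0.05 and -0.02 on its 2 probe sets and was not called. Class I genes are near copies of each other, so probes for 1 member can also bind another.

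Of 17 probe sets for class I antigen processing, 2 were higher and 1 was lower in low animals, and all 3 belong to genes on chromosome 20. Psmb8, a subunit of the immunoproteasome that cuts proteins into peptides, had 7.62 to 8.61 in low animals (median 7.89), 6.76 to 8.36 in middle animals (median 7.47) and 6.51 to 8.3 in high animals (median 7.11). Apart from 1 high animal at 8.3 the low and high classes hardly met, and the difference was 0.78 ± 0.07 (SE, limma adjusted p = 2.48e-16). Tapbp, or tapasin, which holds class I at the peptide transporter, had 7.32 to 8.48 in low animals (median 7.82), 6.88 to 8.20 in middle animals (median 7.56) and 6.62 to 7.89 in high animals (median 7.33). It was higher by 0.62 ± 0.07 (limma adjusted p = 3.23e-12), with 12 of 27 low animals above all high animals.

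Tap2, a chain of the transporter that moves peptides to class I, was lower, with a difference of -0.23 ± 0.05 (adjusted p = 0.00443 in limma), and lost its call without S code 7 and in the fit with no S code term. Its partner Tap1 gave -0.15 (limma adjusted p = 0.641), and Psmb9, the immunoproteasome subunit 2 places from Psmb8, gave 0.02 with a 95% interval of -0.10 to 0.13. Psmb10, Psme1, Psme2, Erap1, Canx, Calr and Pdia3, which act in the same pathway and lie on other chromosomes, were not called.

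By chromosome, the share of named probe sets called was far higher on chromosome 20 than on the others. There, 66 of 474 named probe sets were called (13.9%), 41 lower and 25 higher in low animals, from 57 of 356 genes. On all other chromosomes together, 12 of 16670 were called (0.072%), 4 lower and 8 higher, from 11 genes. The largest absolute difference among named probe sets off chromosome 20, called or not, was 0.81. A further 6128 tested probe sets had no single symbol, and 44 of them were called, while 53 had 1 symbol with no placed chromosome, and 0 of those were called.

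**Figure D3:**
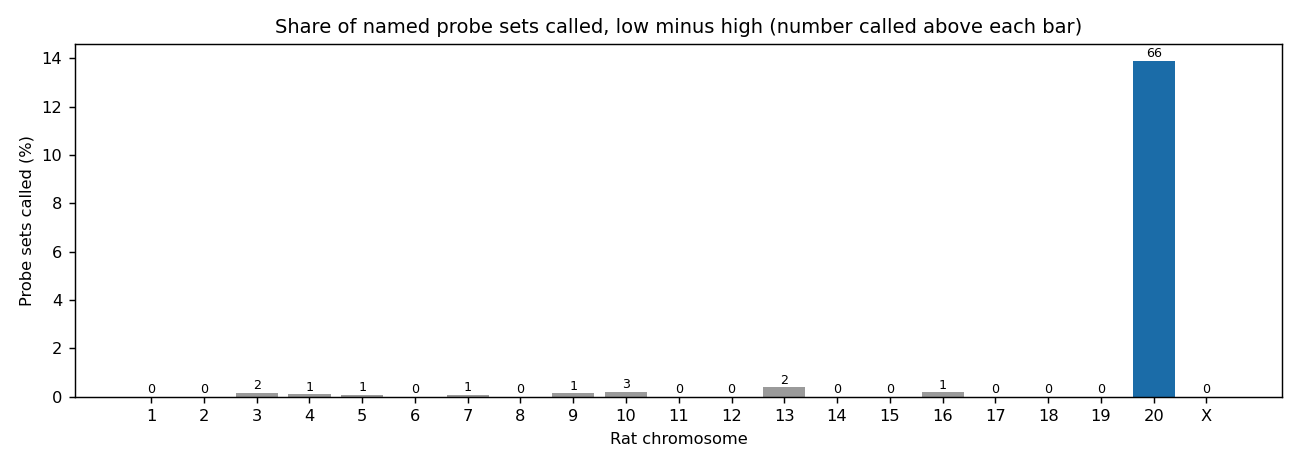
Share of named probe sets (%) called between low and high animals on each rat chromosome of the RefSeq gene table, with the number called above each bar. Chromosome 20 had 66 called (13.9%), and no other bar stood above 0.389%.

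Along chromosome 20, the calls spread far beyond the RT1 complex. Of 15 tested neighbours within 15 genes of RT1-Bb, 5 were called: RT1-Ba, RT1-Db1, RT1-Da, Tap2 and Psmb8. Those not called were RT1-DMa, RT1-DMb, Tap1, Psmb9, Brd2, Rxrb (adjusted p = 0.0927 in limma), Slc39a7, Col11a2, Btnl5 and Btnl8. Among genes 2 to 50 places after RT1-Bb, 9 of 29 probe sets were called (31%), and from 302 to 393 places after it 8 of 35 were (22.9%). From 406 to 600 places, 1 of 55 was called (1.82%), and from 603 to 892 places 2 (1.87%). Before RT1-Bb, 12 of 59 were called within 90 places (20.3%) and 12 of 57 farther away (21.1%). Called genes in every stretch up to 393 places included both directions. The order comes from the reference strain, and neighbours on a chromosome are inherited together in an F2 cross, so their differences are not independent of each other.

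**Figure D4:**
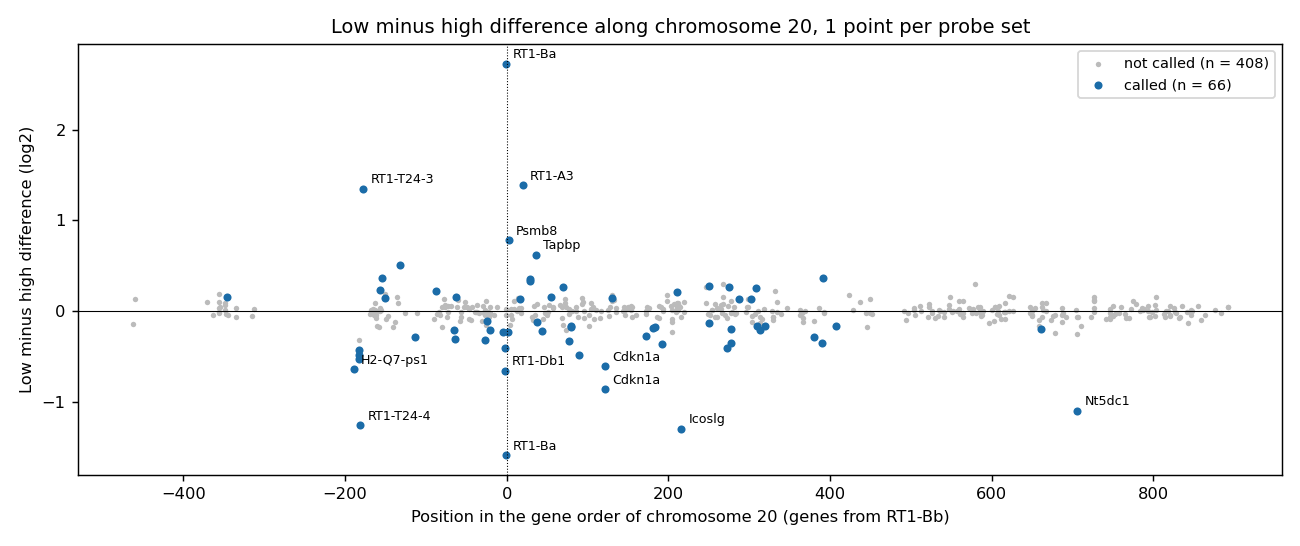
Low minus high difference (log2) of 474 probe sets against the place of their gene in the order of chromosome 20, counted in genes from RT1-Bb, with 66 called probe sets in blue. Called differences of both signs lie before RT1-Bb, among them RT1-T24-3 (1.35), RT1-T24-4 (-1.26) and RT1-Ba (2.73 and -1.59). After it they reach as far as Ccdc6, 391 places on. From 406 places after RT1-Bb 3 were called, with Nt5dc1 at -1.10.

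Several of the larger differences belonged to chromosome 20 genes outside the RT1 families and antigen processing. Icoslg, the ligand of the T cell costimulator ICOS, had 4.33 to 5.63 in low animals (median 4.66), 4.40 to 6.18 in middle animals (median 5.28) and 5.57 to 7.0 in high animals (median 6.0). All but 1 of the low animals lay below every high animal, and the difference was -1.30 ± 0.08 (SE, limma adjusted p = 2.01e-26) on 1374558_at. Its other probe set 1374723_at gave -0.06 and was not called.

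Cdkn1a, the cell cycle inhibitor p21, had 7.37 to 8.45 in low animals (median 7.80), 7.55 to 8.95 in middle animals (median 8.0) and 7.88 to 9.30 in high animals (median 8.42). It was lower by 1.53-fold on this probe set, 1388674_at (difference -0.61 ± 0.06, limma adjusted p = 1.25e-14), and the other, 1387391_at, gave -0.86 ± 0.09 (adjusted p = 2.20e-12 in limma). On these probe sets 17 and 18 of 27 low animals lay below the whole high class. Fance, a member of the Fanconi anaemia DNA repair complex, was lower by 1.41-fold (difference -0.49 ± 0.04, limma adjusted p = 1.14e-16).

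Further called genes on chromosome 20 include enzymes and structural genes. Cbs, which makes cystathionine from homocysteine, gave -0.36, and Lss, which makes lanosterol in cholesterol synthesis, gave -0.35 and -0.20 on its 2 probe sets, the second of which, 1368086_a_at, lost its call in 10 of 24 other settings. Col6a2, a chain of type VI collagen, gave -0.41 on 1376162_at, whereas its other probe set 1371369_at gave -0.08 and was not called. Mrln, the muscle micropeptide myoregulin, gave -0.35, with the call lost in 6 of 24 other settings. Ccdc6 was higher by 0.36 and lay 391 places from RT1-Bb. H2-Q7-ps1 gave -0.64 ± 0.05 on 1385551_at (SE, limma adjusted p = 2.91e-19), with 24 of 27 low animals below every high animal. Bltp3a gave -0.33 on 1374719_at, while its other probe sets gave -0.03 and 0.02 and were not called.

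Nt5dc1 was the called gene farthest from RT1-Bb, 706 places after it. On 1396344_at it had 3.52 to 6.29 in low animals (median 4.13), 3.59 to 6.72 in middle animals (median 5.28) and 3.64 to 7.0 in high animals (median 6.06). All 3 classes covered nearly the same wide range, and the difference was -1.10 ± 0.23 (SE, limma adjusted p = 0.00111). The low median lay under the low-value filter of 4.283, so the size of the difference is uncertain. The call was lost for low against all other animals (adjusted p = 0.159 in limma). The other Nt5dc1 probe set gave -0.07 and was not called.

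Of 80 probe sets of class III and flanking genes of the RT1 complex, 5 were lower and 9 higher in low animals, from 13 of 65 genes, with a median that rounds to 0.00. Vps52, a subunit of the GARP complex that returns vesicles to the Golgi, was higher by 0.33 and 0.35 on 2 probe sets. Ier3, an early response gene that limits apoptosis, was higher by 0.36. Prrt1, which binds AMPA receptors, gave -0.32 on 1377091_at, while its other two probe sets gave -0.04 and 0.01 and were not called, and Ly6g6c, a small surface protein of the Ly6 family, gave -0.31. The calls of Vps52 on 1369667_at, Ier3 and Ly6g6c were lost in 2, 3 and 2 of 24 other settings.

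**Figure D5:**
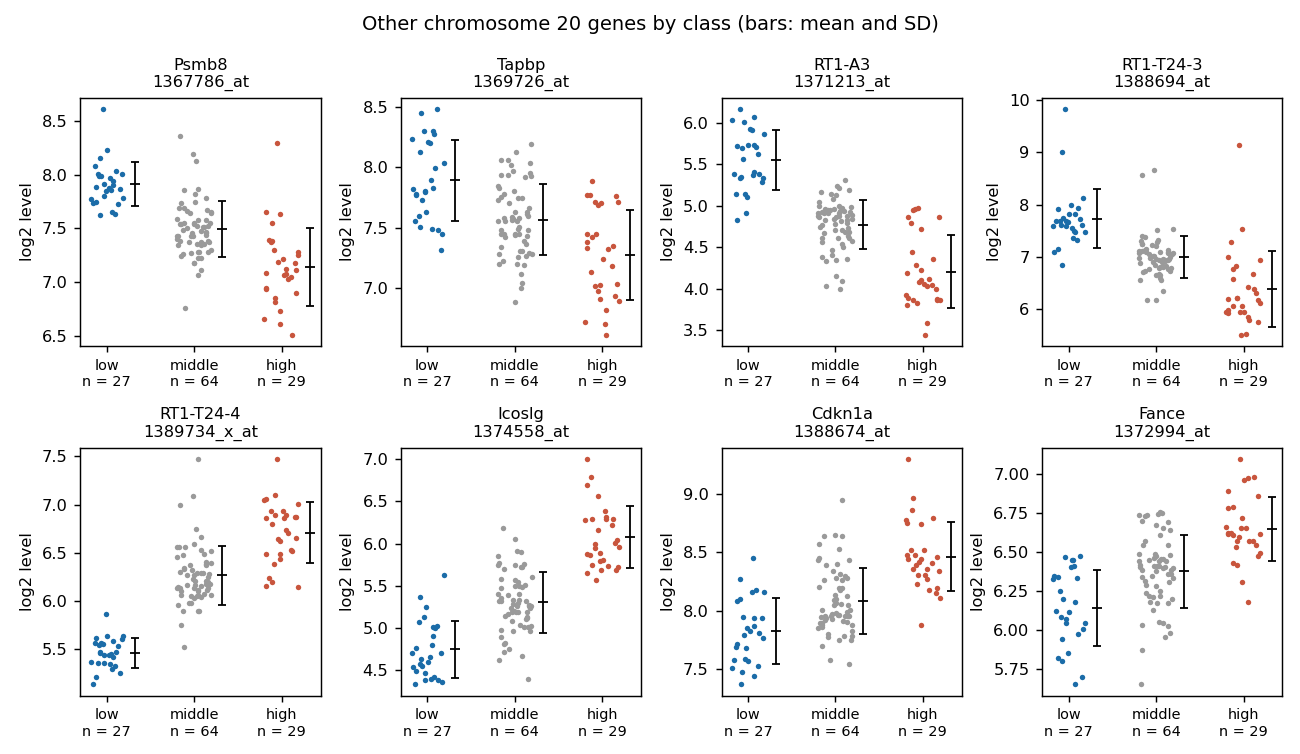
Log2 level of each animal for 8 chromosome 20 genes in low (n = 27), middle (n = 64) and high animals (n = 29), with bars for mean and SD. Psmb8, Tapbp, RT1-A3 and RT1-T24-3 are higher in low animals (Psmb8 medians 7.89 in low and 7.11 in high), and RT1-T24-4, Icoslg, Cdkn1a and Fance are lower (Icoslg medians 4.66 in low and 6.0 in high), with the middle class between.

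Off chromosome 20 the called differences were small. Srebf1, a transcription factor that drives fatty acid and sterol synthesis genes, was higher in low animals on both of its probe sets, by 0.24 ± 0.05 on 1388426_at (limma adjusted p = 4.91e-04) and by 0.32 ± 0.07 on 1371104_at (limma adjusted p = 0.00107). On 1388426_at low animals had 8.94 to 9.80 (median 9.42), middle animals 8.71 to 9.65 (median 9.27) and high animals 8.71 to 9.68 (median 9.25). The ranges overlapped nearly in full, yet the direction was the same in all 9 S codes. Of the 12 named probe sets called off chromosome 20, 1388426_at of Srebf1 was the one whose call held in all 24 other settings.

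Ass1, which makes argininosuccinate in arginine synthesis, was higher by 0.30 ± 0.06 (limma adjusted p = 0.00267), and Dbi, an acyl-CoA binding protein, by 0.14 ± 0.03 (limma adjusted p = 0.00914). Rflnb, Cct7, Plxna2 and Supt3h were higher by 0.09 to 0.22, with Rflnb and Supt3h called on 1 of 2 probe sets and Plxna2 on 1 of 3. Stab1, a scavenger receptor of macrophages and vessels, gave -0.25, Cyp2j4 -0.17, Cnn2 -0.15 and Gins1 -0.11. The calls of Cct7, Plxna2, Supt3h, Stab1, Cyp2j4 and Gins1 were lost in 11 to 18 of 24 other settings. Those of Rflnb, Cnn2, Srebf1 on 1371104_at, Ass1 and Dbi were lost in 6, 5, 4, 2 and 2 settings.

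Probe sets without a symbol included some of the largest differences. The largest was 1388071_x_at, with 7.51 to 8.53 in low animals (median 7.92), 9.77 to 11.78 in middle animals (median 10.59) and 10.44 to 11.78 in high animals (median 11.20). Low animals were far below both other classes, and the difference was -3.14 ± 0.08 (SE, 8.80-fold, limma adjusted p = 4.23e-62). Next came 1396713_at with 2.25, 1393108_at with -2.19, 1394803_at with 2.09 and 1379818_at with 1.89. All of these but 1379818_at were among the 10 called probe sets whose low and high ranges did not overlap (0.0429% of those tested). What they measure is not given in the tables used, and a probe set for RT1-Bb itself could be among them.

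The middle class was set against each end. Between low and middle animals 54 probe sets differed (0.232%), and all 54 were also called between low and high. Between middle and high animals 56 differed (0.24%), of which 50 were also called between low and high. Without S code 1 the number between middle and high was 215, and without S code 7 it was 85, so this count depended on single S codes. In 32 probe sets both steps were called. RT1-A3 was 1 of them, with low above middle by 0.64 and middle above high by 0.74.

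The middle class differed from the midpoint of low and high in 2 probe sets (0.00857%), 1388071_x_at by 1.05 ± 0.06 (SE, limma adjusted p = 3.96e-28) and RT1-Ba 1370822_at by 0.32 ± 0.06 (limma adjusted p = 0.00452). In both the middle class was nearer to the high class. The first has no symbol and could be a probe set for RT1-Bb itself. With classes from the deposited RT1-Bb values the number was 7. The interaction of class with S code was called for 0 probe sets in limma over 55 low and high animals of 9 S codes, and 2089 had an unadjusted p under 0.05.

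No marker list of an eye tissue held a called probe set. The mean rod list level was 10.62 ± 0.10 in low animals and 10.58 ± 0.13 in high animals (SD). The lens list averaged 12.49 ± 0.08 in low animals and 12.46 ± 0.08 in high animals, and skeletal muscle 9.59 ± 0.14 in low animals and 9.64 ± 0.11 in high animals. No member of the rod, cone, glia, pigment, lens, cornea, muscle, gland, red cell, endothelium or complement lists was called in limma; 8 of 21 rod probe sets (38.1%) had an unadjusted p under 0.05, against 7.09% of all probe sets, and 4 of 15 lens probe sets (26.7%) did. Their part in the class differences was not tested. The 3′ minus 5′ difference of beta-actin, which grows as RNA breaks down, was 1.18 ± 0.23 in low animals and 1.22 ± 0.26 in high animals (SD).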

How the data were processed

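The authors deposited 1 log2 value per probe set and array, made by RMA per the submitters' processing notes; the RMA version and annotation are not given in the sources used here. Of 31099 probe sets, 57 controls were left out, 20826 carried 1 gene symbol (20758 in RefSeq), 436 several and 9780 none. The GRCr8 RefSeq table served for names, gene order and promoters. Array medians ran from 5.78 to 5.96. The number of arrays limits precision, p-values measure the spread between animals on single arrays, and RT1-Bb was read on the same arrays as the rest.

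Probe sets with a mean of at least 4.283 (the 25th percentile), without the 2 of RT1-Bb, entered limma 3.58.1 (R 4.3.3) with class and S code as factors and Benjamini-Hochberg adjustment at 0.05. Animals, lists and tests were chosen with earlier results of these data known. Genes named were the 25 of largest called difference, the measured neighbours within 15 places of RT1-Bb, all measured members of the MHC lists, called members of other lists (at most 4 each), and the 5 unnamed probe sets of largest difference; the named genes called off chromosome 20 and Pttg1ip were added after their values were seen. The steps were tested on simulated data.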

Additional observations from a re-analysis of the deposited data

How the results depend on the processing

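The 55 named differences that were refitted had all been called in the main fit, and most animals were shared between the fits. A kept direction was therefore likely from the start. All 55 kept their direction in 24 refits each, and in 1170 of 1320 refits also their call. Of the 55, 29 kept both in every setting. The setting that lost the most calls was low against all other animals, with 22 of 55 lost. The number of probe sets called between low and high ran from 82 to 136 over the other fits and was 57 with 1 probe set per gene, which tests fewer. Other counts that moved by over 1.5 times were these. Chromosome 20 calls were 41 for low against all other animals. Low minus middle gave 33 with the filter at the median. Middle minus high gave 165 with no S code term, 36 with the filter at the median, and 41 to 215 when 1 S code was left out. Middle minus midpoint gave 5 with no S code term, 1 with the L code as a factor, 7 with classes from deposited values, 6 with classes centred on animals above 6.4, 5 without S codes 4 and 9, and 1 to 4 when 1 S code was left out. The cause was not tested. Class definitions from deposited values or centred on animals above 6.4, low against all others, and the omission of S codes 4 and 9 were chosen after seeing the data; with the first pair the low minus high count was 132 and 133. No paired analysis was possible because all animals form a single labelled group, in which no replicate number pairs a low with a high animal.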

Other observations

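Pttg1ip, a chromosome 20 gene 250 places after RT1-Bb, was called in both directions on different probe sets, as RT1-Ba was: 1389903_at gave -0.13 (limma adjusted p = 1.37e-04) and 1378432_at gave 0.28 (limma adjusted p = 0.00111), low minus high, each with the same direction in all 9 S codes that held both classes. Abcg1, an exporter of cholesterol from cells, and Fam13c, both on chromosome 20, were called on 1 of 3 and 1 of 2 probe sets, 1373995_at at -0.27 and 1395816_at at -0.29. The other probe sets of Abcg1 gave -0.03 and 0.00 and that of Fam13c -0.11, and none of those was called. The calls of Abcg1 and Fam13c were lost in 2 of 24 other settings each and those of Pttg1ip in 1, low against all other animals. These genes were picked after their values were seen.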
